A study of Homo sapiens with 2 samples.

Results

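The genes described here are 10 regulators of the G1 checkpoint: the retinoblastoma family genes RB1, RBL1 and RBL2, the CDK inhibitor genes CDKN2A, CDKN2B, CDKN2C and CDKN1B, the D-type cyclin genes CCND1 and CCND2, and the kinase gene CDK6. They were given as a list of genes, drawn up with earlier results of these data known. DNase-seq was done on Saos-2 and U2OS, established human osteosarcoma cell lines, with 1 library per line and no treatment named in the labels. The deposited lists hold hotspots, which are stretches where DNase I cut more often than the background at a false discovery rate of 0.05. Hotspots that overlapped the RefSeq span of a gene, or 100 kb on either side, numbered 61 of 51556 in Saos-2 and 84 of 63388 in U2OS. The CDKN2A and CDKN2B windows overlap, and hotspots in both were counted once in these totals. With 1 library per line there is no replicate error and no p-value, and every difference is between these libraries. All positions are on hg38, counted from 1.

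D-type cyclins bind CDK4 or CDK6, and the complex phosphorylates the pocket proteins encoded by RB1, RBL1 and RBL2. Unphosphorylated pocket proteins hold E2F factors in check, and their phosphorylation releases the genes of DNA replication. The INK4 inhibitors encoded by CDKN2A, CDKN2B and CDKN2C block CDK4 and CDK6, and the product of CDKN1B acts mainly on cyclin E and cyclin A complexes with CDK2. Saos-2 is known as a line without functional RB protein, whereas U2OS keeps RB protein and is known for a silenced CDKN2A gene. A hotspot shows that DNA is open to the nuclease and does not measure RNA or protein.

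A promoter hotspot was defined as one within 1 kb of an annotated start of the gene. By this definition 5 of the 10 genes had a promoter hotspot in Saos-2 (RB1, RBL2, CDKN2B, CDKN2C and CDKN1B), where the share over all 20037 protein-coding genes was 48.9%. In U2OS 8 of the 10 had one, against 54.4% of all protein-coding genes. RB1, RBL2, CDKN2C and CDKN1B had a promoter hotspot in both lines (background 44%), and CDKN2B in Saos-2 alone (background 4.83%). RBL1, CCND1, CCND2 and CDK6 had one in U2OS alone (background 10.3%). CDKN2A had none in either line (background 40.8%). The U2OS list is the longer one. With U2OS limited to its 51556 most significant hotspots, those at a −log10 value of 2.31 or above, RBL2 lost its U2OS promoter hotspot and the other 9 genes kept their class. The counts were then 5 in Saos-2 (background 48.9%), 7 in U2OS (50.2%), 3 in both (42.2%), 2 in Saos-2 alone (6.67%) and 4 in U2OS alone (8.01%).

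**Figure D1:**
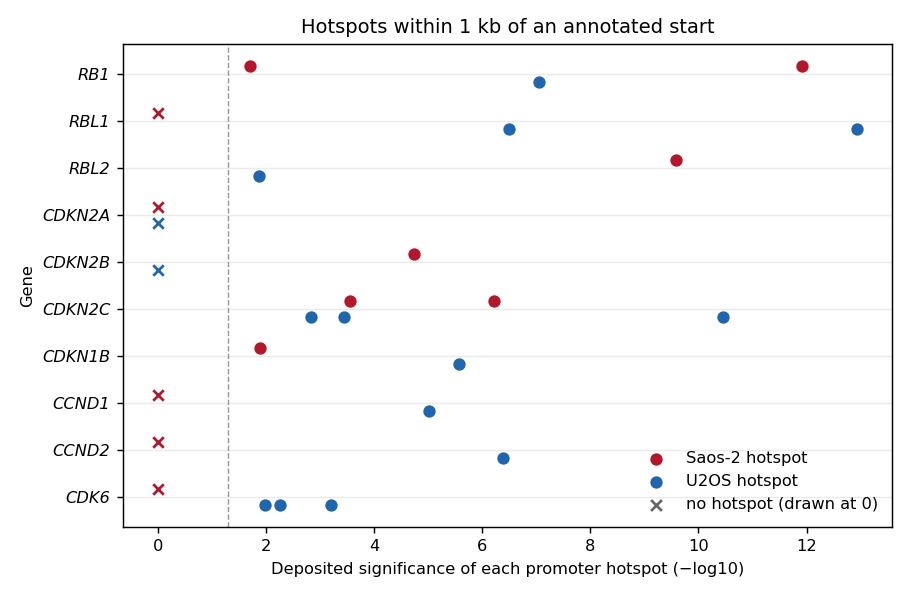
Promoter hotspots of the 10 genes, with the authors' significance (−log10) on the horizontal axis and genes on the vertical axis. Each point is 1 hotspot, crosses at 0 mark a line without a promoter hotspot, and the dashed line is the lowest value the lists can hold; RBL1, CCND1, CCND2 and CDK6 have points in U2OS only and CDKN2B in Saos-2 only.

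The promoter windows of RBL1, RBL2, CDKN2B and CDKN2A are printed below. Those of CDK6, covered in U2OS alone over 129 and 158 bases, are not printed. Whether sequence bears on the differences between the lines was not tested. Each window runs from 250 bases before to 50 bases after an annotated start. It is taken from RefSeq (build GRCh38.p14, with chromosome positions equal to those of hg38). Capitals mark matches, on either strand, to E2F (TTTCGCGC, TTTGGCGC, TTTCCCGC or the core GCGGGAA), ETS (CCGGAAGT or its core CCGGAA), the NRF1 palindrome, SP/KLF (GGGCGGG), NFY (CCAAT), CRE (TGACGTCA), CHR (TTTGAA) and AP-1 (TGANTCA). The E2F core is part of TTTCCCGC read on the other strand, and the ETS core is part of the longer ETS word. The RBL1 window was covered by U2OS hotspots over all 300 of its bases and by none in Saos-2. The RBL2 windows were covered in different lines. The CDKN2B window was covered in Saos-2 alone. The CDKN2A windows, without a hotspot in either line, are given for contrast.
RBL1 (chr20:37095948-37096247, minus strand): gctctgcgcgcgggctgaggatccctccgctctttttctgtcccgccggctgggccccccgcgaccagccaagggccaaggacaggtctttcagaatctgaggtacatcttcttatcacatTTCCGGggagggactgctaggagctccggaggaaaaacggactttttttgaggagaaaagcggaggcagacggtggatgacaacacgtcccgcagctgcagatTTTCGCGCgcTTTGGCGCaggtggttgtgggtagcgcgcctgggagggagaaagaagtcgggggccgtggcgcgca
RBL2, upstream start (chr16:53434221-53434520, plus strand): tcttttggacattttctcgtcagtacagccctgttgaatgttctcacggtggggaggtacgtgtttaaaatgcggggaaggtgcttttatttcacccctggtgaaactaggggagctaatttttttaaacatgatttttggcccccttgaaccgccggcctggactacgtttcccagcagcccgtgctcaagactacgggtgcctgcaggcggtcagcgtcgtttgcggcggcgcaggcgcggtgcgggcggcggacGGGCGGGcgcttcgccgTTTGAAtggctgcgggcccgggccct
RBL2, downstream start (chr16:53435369-53435668, plus strand): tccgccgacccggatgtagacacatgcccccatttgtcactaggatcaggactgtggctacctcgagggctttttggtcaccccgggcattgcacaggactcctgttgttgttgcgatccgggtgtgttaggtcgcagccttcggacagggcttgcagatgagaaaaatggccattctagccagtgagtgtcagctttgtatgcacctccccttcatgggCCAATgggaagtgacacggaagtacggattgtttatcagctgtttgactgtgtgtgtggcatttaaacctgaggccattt
CDKN2B (chr9:22009256-22009555, minus strand): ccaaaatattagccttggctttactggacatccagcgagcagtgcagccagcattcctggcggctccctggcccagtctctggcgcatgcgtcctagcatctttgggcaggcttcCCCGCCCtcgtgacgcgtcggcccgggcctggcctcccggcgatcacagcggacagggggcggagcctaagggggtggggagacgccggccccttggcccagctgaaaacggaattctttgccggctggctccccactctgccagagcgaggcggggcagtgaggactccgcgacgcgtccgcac
CDKN2A, upstream start (chr9:21995275-21995574, minus strand): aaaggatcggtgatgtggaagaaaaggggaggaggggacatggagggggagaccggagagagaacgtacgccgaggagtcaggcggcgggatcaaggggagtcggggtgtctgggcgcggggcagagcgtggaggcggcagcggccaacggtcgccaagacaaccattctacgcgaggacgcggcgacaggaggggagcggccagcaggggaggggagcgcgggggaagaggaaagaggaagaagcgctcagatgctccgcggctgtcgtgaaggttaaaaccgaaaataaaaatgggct
CDKN2A, downstream start (chr9:21974808-21975107, minus strand): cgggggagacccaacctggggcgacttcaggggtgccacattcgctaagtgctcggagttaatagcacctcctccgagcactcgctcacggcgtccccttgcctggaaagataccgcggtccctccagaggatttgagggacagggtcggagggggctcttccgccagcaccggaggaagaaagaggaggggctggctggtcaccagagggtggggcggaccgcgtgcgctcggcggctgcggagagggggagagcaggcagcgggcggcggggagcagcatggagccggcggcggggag

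The RBL1 window holds TTTCGCGC with its first base 26 bases before the start and TTTGGCGC with its first base 16 bases before it. Of 22199 RefSeq windows of protein-coding genes, 0.712% hold the former word and 0.815% the latter. No other window of these genes held either word; the table has 13 windows for 8 of the 10 genes and none for CCND1 and CCND2. The single RB1 window in it lies at the downstream start, at 48476450, where neither line had a hotspot. The sequence at the upstream RB1 start, where the hotspots lay, and at CCND1 and CCND2 was therefore not searched. The E2F core was found in the middle CDKN2C window, and 8.13% of all windows hold it. The SP/KLF word, in 42.3% of all windows, was found in 4 windows, of RBL2, CDKN2B and CDKN2C. Neither CDKN2A window held any of these words. A match is a run of letters and does not show that a factor was bound. The CDKN2A windows had 28 and 26 CpG dinucleotides, above the median of 21 over all windows, and windows covered in U2OS had a median of 27. The RBL2 windows differed in composition, with 27 CpG at the upstream start and 11 at the downstream start.

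RB1 (gene 5925, chr13:48303751-48481890) encodes the retinoblastoma protein itself. Saos-2 had a 629 bp hotspot across the upstream start with a significance of 11.9, and U2OS a 431 bp hotspot with a significance of 7.05, and these overlapped. Saos-2 had a further promoter hotspot at chr13:48304507-48304632, at 1.70, without a counterpart in U2OS. Among all genes with a promoter hotspot, 71.3% had a lower strongest value than RB1 in Saos-2 and 42.0% did in U2OS. The promoter of RB1 was thus open in both libraries, including that of the line known to lack functional protein. Inside the gene beyond its promoter, the Saos-2 list held 1 hotspot, at chr13:48446607-48446732 with a significance of 2.04, and the U2OS list held none. The next site downstream in both lines was at the start of RCBTB2, at 9.66 in Saos-2 and 19.1 in U2OS. U2OS also had a distal hotspot of 5.24 within ITM2B, 40.4 kb before the RB1 start. The window of 378 kb held 4 hotspots in Saos-2 and 3 in U2OS, or 1.06 and 0.793 per 100 kb. The median over all protein-coding genes was 2.49 and 2.98 per 100 kb.

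RBL1 (gene 5933, chr20:36996349-37095997) encodes p107, a pocket protein whose gene is a known E2F target. In U2OS it had promoter hotspots of 554 bp at 12.9 and of 317 bp at 6.50. In Saos-2 the only hotspot of the whole window was at the SAMHD1 start, with a significance of 6.75, where U2OS had 33.1. The RBL1 start lay in a stretch of 250.4 kb without any Saos-2 hotspot, from 36951991 to 37202397, that held all of RBL1 and MROH8. A stretch as long surrounded the start of 12.2% of protein-coding genes in Saos-2. U2OS had 5 hotspots within the stretch: the RBL1 pair above and 3 near the starts of MROH8 and RPN2, the strongest at 23.2. RPN2 encodes a subunit of the oligosaccharyltransferase complex. The absence of Saos-2 hotspots thus extended from RBL1 to the start of this neighbour. Its cause was not tested, and the lists give neither copy number nor read depth. The only distal U2OS hotspot of the window, at chr20:36919857-36919936, lay within SAMHD1. It was 80 bp wide at 2.15 and had no counterpart in Saos-2.

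RBL2 (gene 5934, chr16:53434471-53491648) encodes p130, the pocket protein of resting cells. Both lines had a promoter hotspot, but at different places. In Saos-2 it lay at chr16:53435420-53435705, over the downstream start, with a significance of 9.58, and covered 249 of the 300 bases shown. In U2OS it lay at chr16:53434374-53434483, over the upstream start, at 1.88, and covered 110 bases of that window. The intervals were 936 bp apart. The U2OS value is low, with 3.84% of genes with a promoter hotspot lower, and the hotspot was absent when lists of equal length were compared. The 3 distal Saos-2 hotspots, between 4.09 and 9.38, lay beyond the 3′ end of the gene, and none was overlapped by U2OS. The 1 distal U2OS hotspot, at 3.88, lay inside the gene and was not overlapped either. Over the windows of all protein-coding genes, 52.9% of distal Saos-2 hotspots and 42.8% of distal U2OS hotspots were overlapped by the other line. At the neighbouring AKTIP promoter the hotspots overlapped, with 30.0 in Saos-2 against 34.1 for U2OS.

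CDKN2A (gene 1029, chr9:21967752-21995324) encodes p16 from its downstream start and ARF from its upstream start, and CDKN2B (gene 1030, chr9:22002903-22009313) encodes p15. The only promoter hotspot of the pair was in Saos-2, at chr9:22009264-22009550 over the CDKN2B start, which the antisense gene CDKN2B-AS1 also spans. It was 287 bp wide with a significance of 4.74 and covered 287 of the 300 bases shown. The CDKN2B start in U2OS lay in a 43.4 kb stretch without a hotspot, and 39.8% of protein-coding genes lie in one as long. The CDKN2A upstream start in Saos-2 lay in one of 172.5 kb, a length reached by 18.1% of genes. Inside the gene span itself, RBL1, CDKN2A and CCND1 had no hotspot in Saos-2 (background 39.8%) and CDKN2B had none in U2OS (background 33.6%). Within 10 kb of the gene span, RBL1 and CDKN2A had no hotspot in Saos-2 (background 25.2%) and CDKN2B had none in U2OS (background 18.6%). Within 100 kb none of the 10 genes was without a hotspot in either line (background 5.87% in Saos-2 and 2.83% in U2OS).

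At distal sites of this locus 3 Saos-2 hotspots lay in the CDKN2B window, and each was overlapped by a U2OS hotspot (background 52.9%). All 3 lay within CDKN2B-AS1, the antisense transcript also called ANRIL. At 43.5 kb before the CDKN2B start the significance was 17.8 in Saos-2 and 15.1 in U2OS. The pair 75.5 kb before it had 7.11 and 14.3, and the pair 94.1 kb before it had 6.57 and 15.5. U2OS also had 1 hotspot of 13.3 at chr9:21873871-21874214, on the other side of CDKN2A, with no counterpart in Saos-2. The remaining U2OS hotspots of the locus had values between 1.51 and 2.66, and 3 of these 4 fell under the limit of 2.31 for lists of equal length. In the other direction, 3 of 7 U2OS distal hotspots of the CDKN2B window were overlapped by Saos-2. For the CDKN2A window it was 2 of 7 (background 42.8%).

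CDKN2C (gene 1031, chr1:50960745-50974634) encodes p18 and had 5 hotspots in its window in each line. Of these, 4 overlapped in each line, where 58.1% of the whole Saos-2 list and 46.9% of the whole U2OS list did. At the upstream start, which lies near that of FAF1, the significance was 3.55 in Saos-2 and 10.4 in U2OS. At the downstream start it was 6.22 and 3.44, in the opposite order. The middle start had a hotspot in U2OS alone, at 2.84, over 245 bases of its CpG-rich window. A distal site near the window's edge, 102.5 kb beyond the upstream start, had 40.4 in Saos-2 and 23.0 in U2OS. It was the strongest distal hotspot of the whole set in Saos-2.

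CDKN1B (gene 1027, chr12:12717368-12722369) encodes p27. Its promoter hotspot was 129 bp wide at 1.89 in Saos-2 and 362 bp wide at 5.57 in U2OS, and the narrower lay within the wider. The Saos-2 value ranked low, with 4.57% of genes with a promoter hotspot lower, against 32.8% in U2OS. The window held 9 hotspots in Saos-2, with values from 1.497 to 7.40, and 12 in U2OS, with values from 2.48 to 12.0. In this gene-rich window 4 Saos-2 and 3 U2OS hotspots lay at promoters of neighbours, among them APOLD1 and DDX47. At APOLD1 adjoining Saos-2 hotspots, of 4.44 and 4.84, overlapped the same U2OS hotspot, of 7.39. The CDKN1B promoter hotspots also counted for GPR19. The strongest distal site was the same in both lines, within DDX47 and 102.7 kb from the start, at 7.40 in Saos-2 and 12.0 in U2OS.

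CCND1 (gene 595, chr11:69641156-69654474) and CCND2 (gene 894, chr12:4273762-4305353) encode cyclins D1 and D2. Their strand is not in the tables used, so hotspots near either end would have counted, and those found lay at the lower-coordinate end. In U2OS the CCND1 hotspot at chr11:69640996-69641246 had a significance of 5.02, and the CCND2 hotspot at chr12:4273547-4273837 had 6.38. Saos-2 had no hotspot within the span of CCND1. Both lines shared a site 1.90 kb before it, at chr11:69639041-69639258 in Saos-2 with a significance of 3.58, and at 4.06 in U2OS. With promoters defined as 2.5 kb around a start, this site made CCND1 count in Saos-2 too. CDK6 also counted there, through 2 hotspots near its own starts. The counts were then 7 of 10 in Saos-2 (background 52.8%) and 8 in U2OS (59.1%), with RBL1 and CCND2 left to U2OS alone (11.7%). The strongest distal site of the CCND1 window was nearly identical in extent in the 2 lines, at 12.5 in Saos-2 and 10.6 in U2OS.

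Around CCND2 the 2 libraries differed before the gene. The gene's lower end lay in a Saos-2 stretch of 245.4 kb without a hotspot, a length reached by 12.5% of protein-coding genes, in which U2OS had 10 hotspots. Inside the gene, 3.37 kb from that end, U2OS had a 364 bp hotspot at 15.1, and Saos-2 had a 140 bp hotspot within it at 2.53. At the neighbouring promoter of TIGAR, which encodes a phosphatase of sugar metabolism, the values were 8.81 in Saos-2 and 16.5 in U2OS. Saos-2 had 1 site without a counterpart, at chr12:4307923-4308144 with 4.91.

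**Figure D2:**
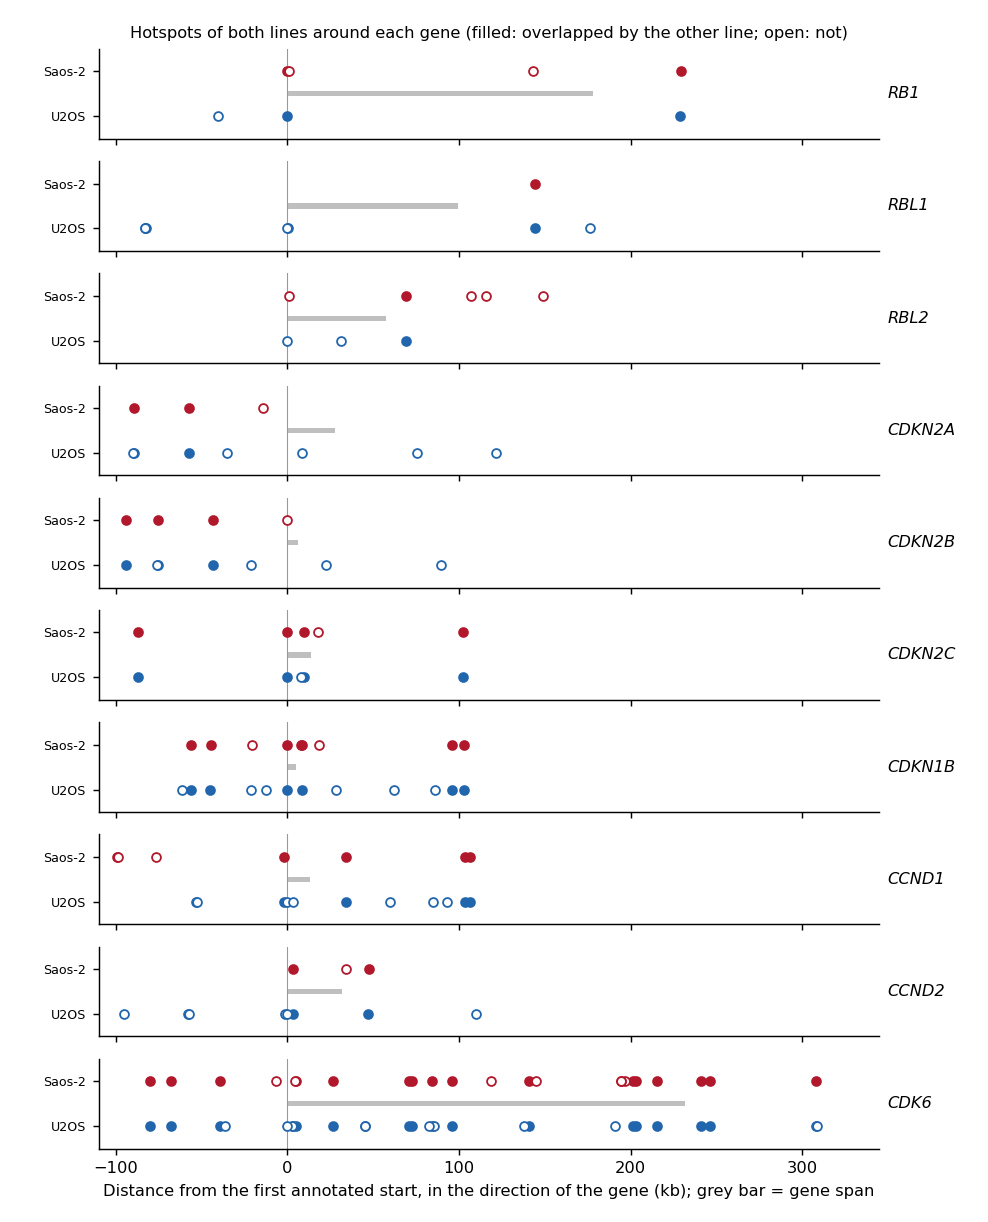
Position of every hotspot in the 10 windows, as distance in kb from the first annotated start in the direction of the gene (for CCND1 and CCND2, from the lower-coordinate end), with the gene span in grey. Filled points are overlapped by the other line and open points are not; the RBL1 row has 1 Saos-2 point against 7 U2OS points, and the CDK6 row has the most.

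CDK6 (gene 1021, chr7:92604921-92836573) encodes the kinase partner of the D cyclins and held 23 of the 61 Saos-2 hotspots and 27 of the 84 U2OS hotspots. This was 5.33 and 6.26 per 100 kb, above the upper quartile of all protein-coding genes in both lines (3.92 and 4.46). The CDKN1B window was also above it in both lines (4.39 and 5.85), and that of CCND1 in U2OS (5.16). Distal hotspots of the CDK6 window numbered 21 in each line, 16 of them inside the gene span in each. Of the 21, 14 in each line overlapped the other (background 52.9% in Saos-2 and 42.8% in U2OS). At the CDK6 promoter the lines differed: U2OS had 3 hotspots, at 3.20, 2.26 and 1.98, and Saos-2 had none within 1 kb. These U2OS values were low, with 15.5% of genes with a promoter hotspot lower than the strongest. With lists of equal length 1 of the 3 was left, and with the top 50% of each list none was. Within 2.5 kb Saos-2 had 2 hotspots, at 2.89 and 1.69.

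The 21 distal CDK6 sites of each line, which are different sets of sites, had a median deposited value of 10.1 in U2OS and 5.27 in Saos-2. For distal hotspots in the windows of all protein-coding genes the medians were 4.31 and 3.79. Of the 14 overlapping distal pairs, 10 ranked higher within the U2OS list and 4 within the Saos-2 list. With lists of equal length 13 pairs were left, 8 with the higher rank in U2OS and 5 with the lower, beside 50.7% of all pairs. The strongest in both lines was at chr7:92904185-92904673 in U2OS, within CDK6-AS1 and 67.9 kb before the upstream start, with 34.9 in U2OS and 16.3 in Saos-2. Inside the gene, U2OS had a hotspot of 20.3 at chr7:92790946-92791430 and one of 14.1 at chr7:92698220-92698880 without a counterpart. The strongest Saos-2 hotspot inside the gene without a counterpart had 8.48, at chr7:92642137-92642511. It was one of 3 such Saos-2 sites near the 3′ end, between 92639569 and 92642511.

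**Figure D3:**
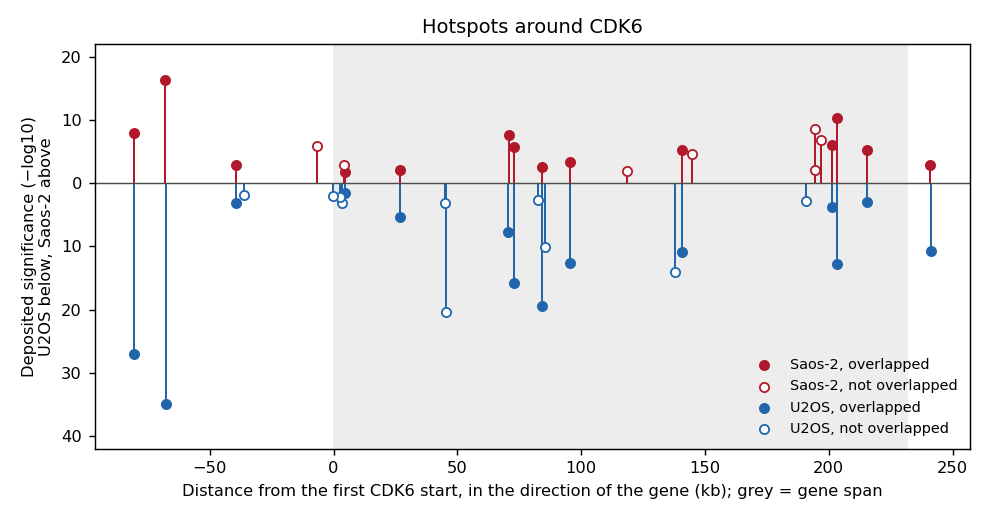
Hotspots of the CDK6 window, without those at promoters of neighbouring genes, by distance in kb from the upstream start (horizontal) and the authors' significance as −log10 (vertical, Saos-2 upwards and U2OS downwards). Filled points are overlapped by the other line; 14 distal sites in each line are overlapped, and the tallest bars, 16.3 in Saos-2 and 34.9 in U2OS, stand 67.9 kb before the start.

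Promoter and distal sites were then compared over the merged windows. In Saos-2 15 of 18 promoter hotspots, of these genes or their neighbours, were overlapped by U2OS (83.3%, exact 95% binomial interval 58.6 to 96.4%), against 80.3% in the whole list. Of 43 distal hotspots 25 were (58.1%, 42.1 to 73.0%), against 52.9% of distal hotspots in the windows of all protein-coding genes. In U2OS 14 of 27 promoter hotspots were overlapped (51.9%, 31.9 to 71.3%), against 70.3%, and 25 of 57 distal ones (43.9%, 30.7 to 57.6%), against 42.8%. The distal shares lean on CDK6. Without its window, 11 of 36 distal hotspots were overlapped in U2OS (30.6%, 16.3 to 48.1%) and 11 of 22 in Saos-2 (50%, 28.2 to 71.8%). These intervals reflect counting error alone, and adjacent sites are not independent of each other.

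Split further, the 10 genes' own promoters were overlapped in 4 of 7 hotspots in Saos-2 (57.1%, 18.4 to 90.1%), against 80.3% of all promoter hotspots. In U2OS 4 of 13 were (30.8%, 9.09 to 61.4%), against 70.3%. Promoters of neighbours in the same windows were overlapped in 11 of 11 and 10 of 14. The U2OS promoter hotspots without overlap were those of RBL1, RBL2, CCND1, CCND2 and CDK6, 1 at CDKN2C, and 4 at neighbours. For own-promoter hotspots the median significance was 4.74 (Saos-2) and 5.02 (U2OS), those of neighbours 6.75 and 12.0, and distal ones 4.58 and 5.41. Hotspots overlapped by the other line had higher values than the rest: 5.86 against 2.89 in Saos-2 and 10.8 against 3.11 in U2OS, as medians.

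**Figure D4:**
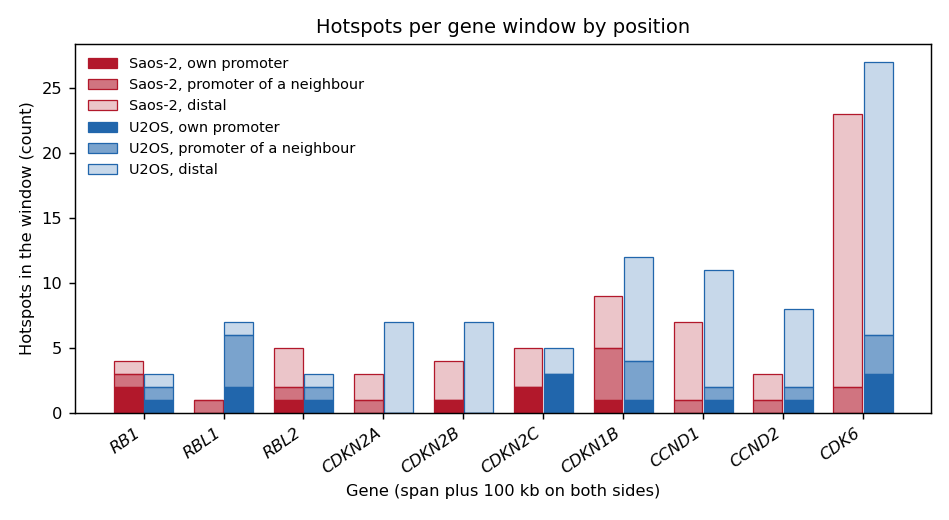
Number of hotspots in each gene window (vertical) for the 10 genes (horizontal), split into the gene's own promoter, promoters of neighbours and distal sites. CDK6 has the tallest bars, 23 in Saos-2 and 27 in U2OS, and RBL1 has the shortest, 1 in Saos-2.

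By window, 7 of the 10 genes had more hotspots in U2OS, where 56.4% of protein-coding genes did, and RB1 and RBL2 had more in Saos-2, where 30.5% did. The U2OS list is also the longer one. With lists of equal length 4 had more in U2OS (CCND2, CDKN1B, CDKN2A and RBL1), against 41% of all genes, and RB1 and RBL2 had more in Saos-2, against 44.2%. With the top 50% of each list 6 had more in U2OS (CCND1, CCND2, CDK6, CDKN1B, RB1 and RBL1), against 48.6%, and CDKN2B and RBL2 had more in Saos-2, against 29.8%. RB1 thus turned from more in Saos-2 to more in U2OS, on windows of 4 and 3 hotspots as deposited. The median count per window was 4.5 (Saos-2) and 7 (U2OS) for the 10 genes, and 6 and 8 for all protein-coding genes.

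Overlapping sites were also ranked by their percentile within each deposited list. Of 40 overlapping pairs in these windows, 29 ranked higher in the U2OS list and 11 in the Saos-2 list. Over all 30625 pairs, 55.6% ranked higher in U2OS. Of the 15 promoter pairs 11 ranked higher in U2OS, and of the 25 distal pairs 18 did. Ranks from lists of different lengths are not on 1 scale. With both lists cut to 51556 hotspots, a setting added after the ranks above had been seen, 38 pairs were left, of which 25 had the higher rank in U2OS and 13 the lower. Over all 27746 pairs of the equal lists, 50.7% ranked higher in U2OS. The promoter pairs were then split 10 and 4 and the distal pairs 15 and 9. Pairs share a library and many lie in 1 gene, so they are not independent, and read depth, which the lists do not give, may still differ.

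**Figure D5:**
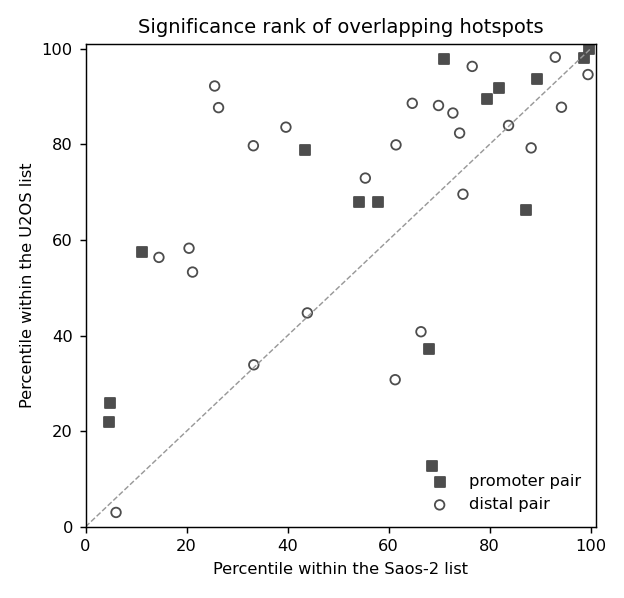
Percentile of significance within the Saos-2 list (horizontal) and within the U2OS list (vertical) for the 40 overlapping pairs, with equal rank on the dashed line. Squares are promoter pairs and circles distal pairs; 29 points lie above the line and 11 below.

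A further 29 genes of the pathway (other D and E cyclins, CDKs, E2F and DP factors, DREAM subunits and CDK regulators) were read in the same way. In Saos-2 25 had a promoter hotspot and in U2OS 26, or 86.2% and 89.7%, beside the 48.9% and 54.4% of all genes given above. In both lines 24 had one (82.8%, background 44%). CDKN1A, which encodes p21, had one in Saos-2 alone, at 4.06 (3.45%, background 4.83%). CCNE1, the gene of cyclin E1, and E2F4, a repressive partner of the pocket proteins, had one in U2OS alone, at 2.94 and 2.08 (6.9%, background 10.3%). Neither single-line share was thus above that of all genes. With lists of equal length E2F4 was no longer listed in U2OS, which left CCNE1 (3.45%, background 8.01%). CDKN1C and E2F2 had none in either line (6.9%, background 40.8%). CDK4, the paralogue of CDK6, had 18.1 in Saos-2 and 7.56 in U2OS, and CCND3, the gene of cyclin D3, had 4.56 and 6.98.

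Of 9 osteoblast genes, 4 had a promoter hotspot in each line (44.4%), not above the 48.9% and 54.4% over all genes, so these counts do not tell the lineage. They were RUNX2, SPARC and BGLAP in both, ALPL in Saos-2 and COL1A1 in U2OS. The U2OS values of these genes were between 1.59 and 2.28. With lists of equal length none of the 9 was left in U2OS (background 50.2%). SP7, COL1A2, IBSP and SPP1 had none. Of 6 genes of other lineages, none had one in Saos-2, and KRT5 had one in U2OS, at 1.53. With lists of equal length KRT5 was not left in U2OS either.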

How the data were processed

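DNase-seq libraries of Saos-2 and U2OS, 1 per line, were grouped by the cell line named in the labels. Per the labels' protocols, nuclei were digested with DNase I for 3 min at 37 °C, and libraries were amplified with 8 to 10 PCR cycles. Per the submitters' processing notes, Trimmomatic 0.38, BWA 0.7.15 and the build hg38 were used; the hotspot caller and its settings are not given in the sources used here. The authors deposited 1 hotspot list per library with a −log10 value for each hotspot, taken here as its significance because the lowest is 1.30 and the highest 100; the lists have no header. The deposited score, about 10 times that value, was not used. Read depth and copy number are not given by the lists, and ranks within a list do not remove their effect.

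Hotspots were joined to RefSeq genes (GRCh38.p14) with Python 3.11.15, pandas 2.3.3, numpy 2.4.6 and scipy 1.17.1. Starts were the 5′ end of the span plus the starts in the RefSeq promoter table; genes without a strand there had both ends used. Promoter hotspots overlap 1 kb on either side of a start of a protein-coding gene, and the others are distal. Starts of non-coding genes, such as CDKN2B-AS1 and CDK6-AS1, were not used. Hotspots overlapping by at least 1 bp counted as shared. Intervals are exact binomial (Clopper-Pearson), and no test was run because each line has 1 library. Overlap and merging were tested on simulated intervals. The 10 genes, the other gene lists and the motifs were chosen with earlier results of these data known. Named sites were every promoter hotspot and the strongest distal hotspot per gene and line; other sites, and the choice of promoter windows printed, were picked after their values were seen.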

Additional observations from a re-analysis of the deposited data

How the results depend on the processing

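No paired analysis was possible because there was 1 library of each line, and no replicate could be omitted. Of 70 recomputed totals, counts and shares, 60 stayed within 1.5 times the reported count or within its interval. With the top 50% of each list, the windows held 36 Saos-2 and 48 U2OS hotspots. With flanks of 50 kb U2OS had 53, and with flanks of 10 kb the lines had 32 and 37, with 2 genes in Saos-2 and 1 in U2OS left without a hotspot; smaller windows and shorter lists hold fewer hotspots by construction. With an overlap of at least 50% of both hotspots, 55.6% of Saos-2 promoter hotspots and 48.8% of distal ones were shared. In U2OS the shares were 37.0% and 36.8%, so promoter and distal sites hardly differed there. The share over all hotspots was not computed at this setting. Without CDK6, a setting chosen after seeing the data, Saos-2 had 38 hotspots, and 30.6% of U2OS distal hotspots were shared (11 of 36, background 42.8%). Of 100 recomputed promoter counts of single genes, 86 stayed within 1.5 times. With the top 50% of each list, CDK6 had a promoter hotspot in neither line, CDKN1B in U2OS alone and RBL2 in Saos-2 alone. The other genes kept their class at this setting. RBL1 kept a promoter hotspot in U2OS and none in Saos-2, CDKN2B kept one in Saos-2 and none in U2OS, and CDKN2A had none in either line, under each of the 5 settings in which promoters were recounted (equal lists, top 50%, merging within 150 bp, and 500 bp or 2.5 kb around a start). The lowest strongest promoter values were 3.20 for CDK6 and 1.88 for RBL2 in U2OS and 1.89 for CDKN1B in Saos-2; the lists give no read depth, and its part was not tested.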
